A study of Mus musculus with 4 samples.

Results

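Small nucleolar RNAs (snoRNAs) and small Cajal body RNAs (scaRNAs) were examined in whole testes of mice with and without a knockout of Dis3. Their genes were taken as the rows of the gene table whose symbol begins with Snord (C/D box), Snora (H/ACA box), Rnu3 (U3) or Scarna (Cajal body). Members were chosen by their read counts, with at least 10 reads summed over the 4 libraries. Of 54232 rows, 160 carried these names and 39 were members, namely 22 C/D box, 11 H/ACA box, 2 U3 and 4 Cajal body genes. The rule used the summed reads, so the overall level of a member is a description. It did not use the difference between genotypes, but a sum can pass through the genotype where an RNA is high. The members were also chosen with earlier results of these data known.

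The KO group held 2 libraries and the WT group 2 libraries, all from testes at postnatal day 17 of mice labelled B6D2F1 inbred. KO animals carried the genotype Dis3 KO, which the series design calls a conditional knockout, and WT animals the genotype Dis3 WT. The labels do not give the Cre driver, the cells in which Dis3 was deleted or the number of animals behind a library. The edgeR p-values therefore measure the spread between these libraries, which may be technical. Levels are given as CPM, the read count scaled to the size of its library. The mRNA of Dis3, a nuclease of the exosome that degrades RNA from the 3′ end, averaged 41.2 ± 2.35 CPM in KO and 80.5 ± 0.295 CPM in WT (SD, n = 2 each).

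snoRNAs are stable nuclear RNAs that direct chemical changes to ribosomal RNA by base pairing. C/D box snoRNAs guide 2′-O-methylation, H/ACA box snoRNAs guide pseudouridylation, and U3 takes part in cutting the ribosomal RNA precursor rather than in modifying it. scaRNAs carry the same boxes but act on spliceosomal RNAs in Cajal bodies. Most mammalian snoRNAs are cut out of the introns of other genes, called hosts, and their ends are then trimmed, in which the nuclear exosome takes part.

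The RNAs on which the comparison turns are shown as annotated, 5′ to 3′, from the GENCODE M21 transcripts of the GRCm38 build, and all 39 members had the same position there as in the counted annotation. Rnu3b2 and Snora21 were called higher in KO under every alternative fit tried, and Snord17 is the member with the most reads. Capitals mark the last annotated base of Rnu3b2 (chr11:87471368-87471583, plus strand), the ACA of Snora21 (chr11:97781639-97781775, minus strand), and the C box TGATGA and D box CTGA of Snord17 (chr2:144265979-144266216, minus strand).
Rnu3b2: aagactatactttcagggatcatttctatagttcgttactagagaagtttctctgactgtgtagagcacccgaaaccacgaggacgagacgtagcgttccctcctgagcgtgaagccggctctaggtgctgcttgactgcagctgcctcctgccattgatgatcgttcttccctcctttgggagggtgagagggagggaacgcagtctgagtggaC
Snora21: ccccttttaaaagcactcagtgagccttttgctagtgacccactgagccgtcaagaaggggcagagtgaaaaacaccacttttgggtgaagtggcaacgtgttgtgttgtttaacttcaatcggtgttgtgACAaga
Snord17: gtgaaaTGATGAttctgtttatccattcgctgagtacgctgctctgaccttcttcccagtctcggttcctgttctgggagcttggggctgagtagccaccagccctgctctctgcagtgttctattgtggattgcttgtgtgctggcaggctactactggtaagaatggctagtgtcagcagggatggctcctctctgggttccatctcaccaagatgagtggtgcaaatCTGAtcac

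The boxes that define each class were looked for in the annotated sequences. CTGA stood in the last 20 bases of 21 of the 22 C/D box members, against 9.24% of 141704 annotated transcripts searched the same way on the transcript strand. TGATGA stood in the first 20 bases of 14 of the 22, against 0.699% of transcripts, and 13 of the 22 held both. ACA stood 2 to 5 bases from the end of all 11 H/ACA box members, against 8.66% of transcripts. TGAG, the core of the Cajal body box, was found in 3 of the 4 Cajal body members, but 75.6% of transcripts hold it in a window of 270 bases, so it sets nothing apart here. Of the 4 Cajal body members, 2 held both TGATGA and CTGA at these places and 1 held ACA, and both U3 members held CTGA but not TGATGA. The median length was 83.5 bases for C/D box, 137 for H/ACA box, 216 for U3 and 270 for Cajal body members.

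These RNAs drew few reads, 5532 in all, from libraries that held 17663416 and 19255782 reads in KO and 31031920 and 40329170 in WT. Each library is named by genotype and replicate, and values for 2 libraries of a genotype are given in the order of replicates 1 and 2. The library sizes behind CPM include TMM, a correction for composition, with factors of 1.04 and 1.07 in KO and 0.955 and 0.942 in WT. The member with the most reads was Snord17 with 1742, followed by Scarna2 with 1452, Snord15a with 425 and Scarna13 with 323, and 28 of the 39 members had fewer than 50. Members with more reads were also longer, with r = 0.72 and rho = 0.57 between length and log10 reads over the 39 members, a description of genes that share the same 4 libraries. Per kilobase of annotated length, Snord17 reached 78.2 ± 18.2 CPM in KO and 65.2 ± 13.8 in WT (SD, n = 2 each). Next stood Snord15a with 30.1 ± 12.7 CPM per kilobase in KO and 24.6 ± 3.47 in WT, Scarna2 with 28.5 ± 9.95 and 34.4 ± 10.5, and Snord104 with 25.9 ± 2.23 and 29.4 ± 2.16. These 3 did not differ from each other beyond their spread in either genotype.

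The threshold itself cut through RNAs of like level. Snord32a and Snord61, just inside with 10 reads, had 6 and 0 reads in KO against 0 and 4 in WT, and 1 and 6 in KO against 3 and 0 in WT. Snord23 and Snord65, just outside with 9 reads, had 3 and 3 in KO against 3 and 0 in WT, and 1 and 0 in KO against 1 and 7 in WT. Of H/ACA box genes, Snora47 and Snora57 lay inside with 10 and 14 reads, and Snora41 and Snora36b outside with 9 and 6. Of Cajal body genes, Scarna17 lay inside with 10 reads, followed by Scarna6 with 41, and Scarna8 and Scarna3a outside with 7 and 4. Of the 121 named rows below the threshold, 30 had some reads and 91 were listed at 0. A count of 0 is no measure of the RNA for many of these rows. Of the 160 rows, 62 have no base that is free of another gene on the same strand, and reads touching more than 1 gene were not counted. All 62 are among the 91 rows at 0. Of the 39 members, 11 have another annotated transcript at least 90% identical to them, and reads placed equally well in both were left out.

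Between the genotypes, 3 members were higher in KO and none was lower. They were the U3 gene Rnu3b2, the H/ACA box gene Snora21 and the C/D box gene Snord13. The test was the quasi-likelihood test of edgeR over all genes, at an adjusted p of 0.05, and it could be applied to 17 of the 39 members, 7 C/D box, 5 H/ACA box, 2 U3 and 3 Cajal body genes. The other 22 were too low for its filter. Of all 25076 genes tested, 31.9% were called, 11.6% as higher and 20.3% as lower in KO. With plain library totals in place of TMM, 64.9% of the calls were higher, against 36.3% with TMM, and the same 3 members were called along with Scarna13. At an unadjusted p under 0.05 no member was lower either, and DESeq2 called none lower. The filter asks for about 0.398 CPM (before TMM) in 2 libraries, and 5 of the 17 reached it in both KO libraries and neither WT library, namely Snord13, Snord49b, Snora17, Rnu3b4 and Scarna6, so that these could hardly have been tested without being higher in KO. The same held for 8.96% of all genes tested, and 0.275% reached it through the WT libraries alone. The 17 tested members had a median log2 fold change of 0.48, against 0.05 for all genes tested, and without genes that passed through 1 genotype alone the medians were 0.28 for 12 members and -0.0025 for all genes. Among the 15712 tested genes with 28 to 1742 reads, the range of the tested members, 12.6% were higher, 5.83% were lower and the median was 0.31.

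**Figure D1:**
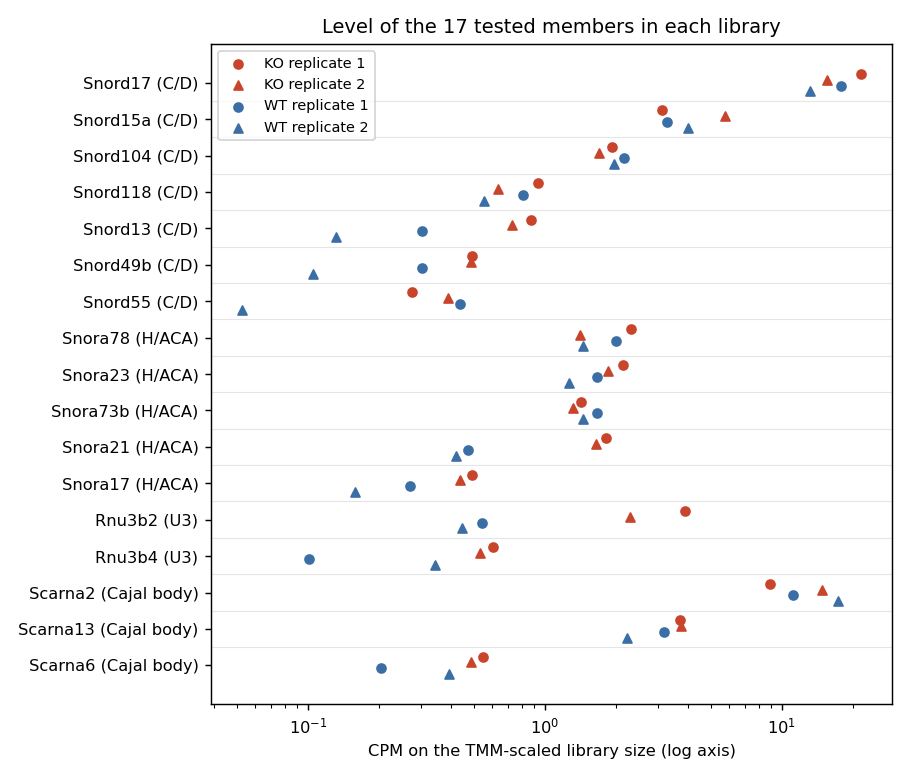
Level of each of the 17 tested members in each library, in CPM on a log axis, with KO libraries in red and WT libraries in blue (circles for replicate 1, triangles for replicate 2). For Rnu3b2, Snora21 and Snord13 both KO libraries lie to the right of both WT libraries by more than the distance within a genotype, whereas for Snord17, Snord15a, Snora78 and Scarna2 the genotypes overlap.

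Of the 17 tested members, the U3 gene with the most reads had the largest log2 fold change. Rnu3b2 (ENSMUSG00000105115) had 71 and 47 reads in KO against 16 and 17 in WT. These were 3.90 and 2.28 CPM in KO and 0.541 and 0.448 CPM in WT. Both KO libraries stood well above both WT libraries, and the KO libraries differed from each other by a factor of 1.71. The log2 fold change was 2.63 ± 0.376 (SE), with an edgeR adjusted p of 9.73e-06. It passed the test under all 12 alternatives tried, with log2 fold changes of 2.18 to 2.92.

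Rnu3b4 (ENSMUSG00000104896), whose 216 bases are identical to those of Rnu3b2 (100% identity), lies at chr11:87462286-87462501. It had 11 and 11 reads in KO against 3 and 13 in WT, or 0.604 and 0.534 CPM in KO and 0.101 and 0.343 CPM in WT. Here the KO libraries were alike while the WT libraries were not, and WT replicate 2 came close to KO. The log2 fold change of 1.28 ± 0.669 did not pass (edgeR adjusted p = 0.145), nor did it under any of 10 alternatives. A further copy, Rnu3b1, fell short of the threshold with 1 and 0 reads in KO against 2 and 4 in WT, and Rnu3b3 and Rnu3a were listed at 0.

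What was counted for U3 is a narrow class of reads. Each U3 locus is annotated by 2 entries on the same strand that start at the same base and end 1 base apart, 215 and 216 bases long for Rnu3b2. A read touching any of the first 215 bases meets both entries and was not counted, and the shorter entry was listed at 0 in every library. The longer entry alone holds the last base, chr11:87471583, printed as a capital above. A counted read without a gap in its alignment therefore began at this base and ran past the annotated 3′ end. As far as they had no gap, the 151 reads of Rnu3b2 come from RNA that reaches beyond the annotated end, and the level of U3 itself was not measured. Reads that begin at a single base carry no molecular identifiers here, so copies of 1 molecule made by PCR and separate molecules cannot be told apart. A read that matched more than 1 of the identical loci would not have been counted, so each counted read was placed in a single locus by its alignment.

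**Figure D2:**
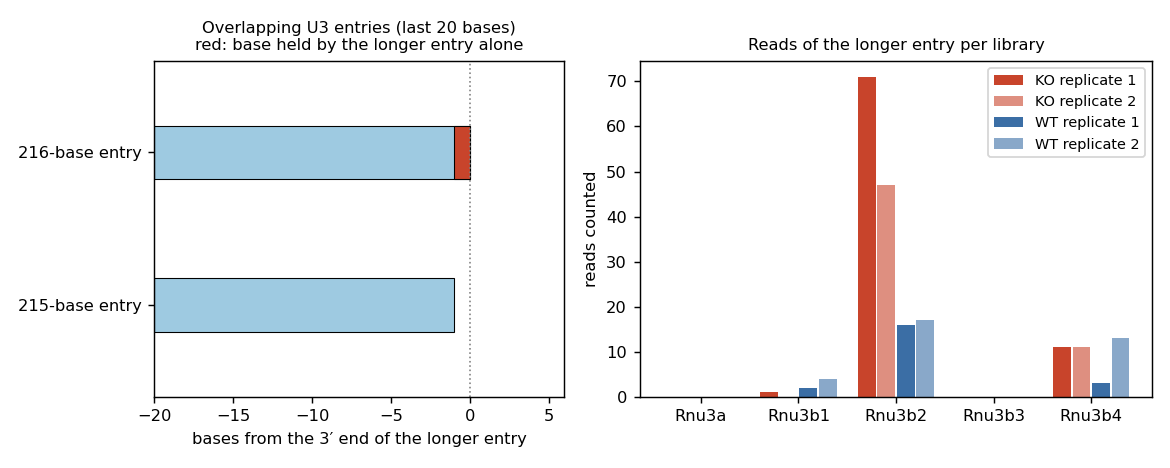
Left, the last 20 bases of the overlapping annotation entries of Rnu3b2, by distance from the 3′ end of the longer entry, with the base that belongs to the longer entry alone in red. Right, reads counted for the longer entry of each U3 locus in KO (red) and WT (blue) libraries, where Rnu3b2 has 71 and 47 reads in KO and 16 and 17 in WT.

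Among H/ACA box RNAs, Snora21 passed the test and the other 4 that could be tested did not. Snora21, which guides pseudouridylation of 28S ribosomal RNA in human cells, had 33 and 34 reads in KO against 14 and 16 in WT. These were 1.81 and 1.65 CPM in KO and 0.474 and 0.422 CPM in WT. The libraries of each genotype were close to each other and the genotypes far apart. With a log2 fold change of 1.94 ± 0.423, Snora21 was called higher (edgeR adjusted p = 0.00108), and it passed under all 12 alternatives, with values of 1.84 to 2.10. A predicted gene, Gm23795, has a sequence 97.8% identical to Snora21 and was listed at 0 in all libraries.

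The other 4 tested H/ACA box members did not pass. Snora78 had 2.30 and 1.41 CPM in KO against 1.996 and 1.45 CPM in WT, with overlapping genotypes and a log2 fold change of 0.11 ± 0.327 (edgeR adjusted p = 0.828). Snora23 had 2.14 and 1.85 CPM in KO against 1.66 and 1.27 CPM in WT, with both KO libraries higher and a log2 fold change of 0.45 ± 0.318 (edgeR adjusted p = 0.283). Snora73b, a form of the U17 RNA that serves ribosomal RNA cleavage, had 1.43 and 1.31 CPM in KO against 1.66 and 1.45 CPM in WT. Both KO libraries were lower, but by no more than the libraries of a genotype differed, with a log2 fold change of -0.18 ± 0.335. Its near copy Snora73a (96.6% identity) had 1 read in all. Snora17 had 9 and 9 reads in KO against 8 and 6 in WT, with a log2 fold change of 1.13 ± 0.674 that did not pass (edgeR adjusted p = 0.206).

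Among C/D box RNAs, the call rested on few reads. Snord13, the U13 RNA, which in human cells is needed for acetylation of 18S ribosomal RNA and is made from its own promoter, had 16 and 15 reads in KO against 9 and 5 in WT. These were 0.878 and 0.728 CPM in KO and 0.304 and 0.132 CPM in WT. Both KO libraries lay above both WT libraries, and the WT libraries differed by a factor of 2.31. Snord13 was called higher, with a log2 fold change of 1.90 ± 0.627 (edgeR adjusted p = 0.0237). Snord13 reached the filter through the KO libraries alone, so this call is not independent of the filter. The call did not hold without KO replicate 1 (log2 fold change 1.73, adjusted p = 0.233), KO replicate 2 (1.97, 0.141) or WT replicate 2 (1.36, 0.172). Nor did it after background subtraction over the gene length (1.89, 0.101) or over the length plus 200 bases (2.01, 0.105), and DESeq2 gave it no adjusted p.

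The most abundant C/D box RNA did not pass. Snord17 had 395 and 320 reads in KO against 527 and 500 in WT, or 21.7 and 15.5 CPM in KO and 17.8 and 13.2 CPM in WT. KO replicate 1 was the highest, but KO replicate 2 lay between the WT libraries. The log2 fold change was 0.27 ± 0.171 (edgeR adjusted p = 0.258), and the outcome turned on single libraries. Without KO replicate 2 it was 0.44 (adjusted p = 0.00815) and without WT replicate 1 it was 0.45 (0.0116), whereas without KO replicate 1 it was -0.011.

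Snord15a behaved likewise, with 57 and 119 reads in KO against 97 and 152 in WT. At 3.13 and 5.78 CPM in KO and 3.28 and 4.01 CPM in WT, the KO libraries lay on either side of WT. Over all 4 libraries the log2 fold change was 0.29 ± 0.243 (edgeR adjusted p = 0.368), but 0.63 without KO replicate 1 (adjusted p = 0.0387) and -0.28 without KO replicate 2.

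Of the remaining tested C/D box RNAs, Snord104 was lower in both KO libraries, with 1.92 and 1.70 CPM in KO against 2.17 and 1.95 CPM in WT and a log2 fold change of -0.18 ± 0.291. Snord118, the U8 RNA needed for processing of 28S and 5.8S ribosomal RNA, had 0.933 and 0.631 CPM in KO against 0.812 and 0.554 CPM in WT, a log2 fold change of 0.20 ± 0.488. Snord49b had 9 and 10 reads in KO against 9 and 4 in WT, a log2 fold change of 1.29 ± 0.697. Snord55 had 5 and 8 reads in KO against 13 and 2 in WT, and the WT libraries alone spanned a factor of 8.34. None of these 4 passed the test, with edgeR adjusted p of 0.160 for Snord49b and above that for the others.

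Cajal body RNAs gave no call. Scarna2, which in human cells guides methylation of U2 RNA, had 162 and 303 reads in KO against 330 and 657 in WT. Its levels of 8.89 and 14.7 CPM in KO and 11.2 and 17.3 CPM in WT interleaved, and the libraries differed by a factor of 1.66 within KO and 1.55 within WT. The log2 fold change was -0.27 ± 0.356 (edgeR adjusted p = 0.619). It was called lower without KO replicate 2 (-0.75, adjusted p = 9.66e-05) and without WT replicate 1 (-0.58, 0.0011), and had the opposite sign without KO replicate 1 (0.011) and without WT replicate 2 (0.074).

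Scarna13, an H/ACA type guide also known as U93, had 68 and 77 reads in KO against 94 and 84 in WT. At 3.73 and 3.74 CPM in KO and 3.18 and 2.22 CPM in WT, both KO libraries were higher. The log2 fold change of 0.48 ± 0.241 did not pass (edgeR adjusted p = 0.129). With plain library totals in place of TMM it did, at 0.63 and an adjusted p of 0.0474. Of the annotated bases of Scarna13, 65 are shared with Mir3069 on the same strand and gave no counts. Scarna6 had 10 and 10 reads in KO against 6 and 15 in WT, with a log2 fold change of 0.75 ± 0.63 (edgeR adjusted p = 0.374). Scarna17, not tested, had 3 and 4 reads in KO against 2 and 1 in WT.

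**Figure D3:**
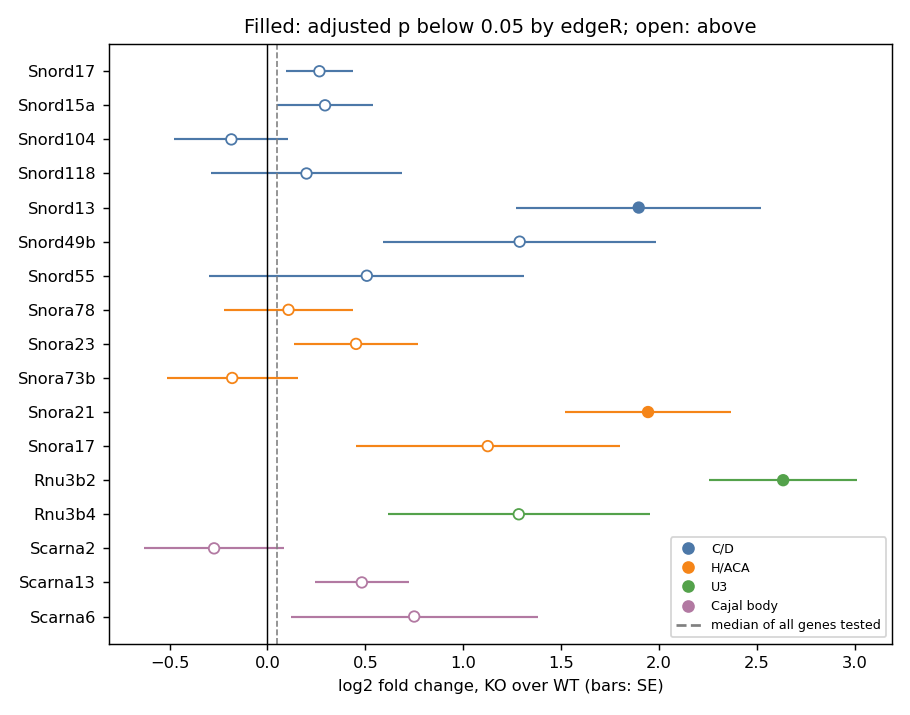
log2 fold change (KO over WT) of the 17 tested members with bars of 1 SE, coloured by class, with the median of all genes tested as a dashed line. Filled points (Snord13 at 1.90, Snora21 at 1.94 and Rnu3b2 at 2.63) passed the edgeR test and open points did not, and 3 of the 17 (Snord104, Snora73b and Scarna2) lie below 0.

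The 22 members that could not be tested were summarised by their reads. Of all 39 members, 5 had 10 reads or more in KO but not in WT (Snord42b, Snord11, Snord85, Snora62 and Snora47) and 7 in WT but not in KO, so for these the genotype with more reads carried them past the threshold, and their ratios are descriptions. Together the 22 untested members had 89 and 87 reads in KO against 65 and 86 in WT, or 4.88 and 4.23 CPM in KO and 2.20 and 2.27 CPM in WT. Both KO libraries were thus higher in sum. At counts this low, background reads also matter. They were estimated from 14248 regions of 3000 bases upstream of autosomal genes too low to be tested. The regions were not screened for overlap with other genes. There the trimmed mean level was 0.497 and 0.494 CPM in KO against 0.277 and 0.200 CPM in WT. This background too was thus higher in KO. At that rate, the length of these members plus 200 bases would collect 19.8 and 22.3 of their reads in KO and 17.9 and 16.6 in WT. With these taken off, the sums were 3.80 and 3.14 CPM in KO against 1.59 and 1.83 CPM in WT. Over single members outside U3, the same estimate ran from 0.293% of the reads of Snord17 to 39.4% of those of Snora47. It does not cover reads from unspliced or cut-out introns of hosts, in which most members lie.

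Snord11 lies in an intron of Nop58, the gene of a C/D box core protein. It had 14 and 6 reads in KO against 1 and 0 in WT. The ratio of KO to WT reads, scaled to library size, was 34.8, with an exact binomial 95% interval of 5.56 to 1441 that covers counting error only.

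Snora47 had 5 and 5 reads in KO against 0 and 0 in WT. Since all 10 of its reads lie in KO, it is a member through KO alone, and no fold is given.

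Other small counts leaned the same way. Snord93 had 6 and 3 reads in KO against 0 and 1 in WT, a ratio of 15.6 (interval 2.17 to 685.8). Snord92 had 4 and 5 reads in KO against 1 and 1 in WT, a ratio of 7.82 (1.62 to 74.4). Snora62 had 5 and 11 reads in KO against 2 and 5 in WT, a ratio of 3.97 (1.55 to 11.4). For these 3, and for Snord85 (3 and 7 reads in KO against 0 and 4 in WT) and Snord42b (6 and 9 in KO against 5 and 4 in WT), the interval lay above 1. Snora62, Snord85 and Snord42b passed the threshold through their KO reads. The intervals also leave out the spread between replicates, so they are no test of the genotype.

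Some leaned the other way. Snord66 had 1 and 0 reads in KO against 4 and 6 in WT, a ratio of 0.174 with an interval of 0.00401 to 1.22. Snord58b and Snord83b each took most of their reads from a single WT library, with 1 and 0 in KO against 10 and 1 in WT, and 1 and 1 in KO against 0 and 11 in WT. Snora57 had 2 and 2 reads in KO against 4 and 6 in WT, a ratio of 0.695 (0.159 to 2.41). The remaining untested members, Snord8, Snord53, Snord89, Snord32a, Snord61, Snord71, Snord90, Snora30, Snora31 and Snora20, had 10 to 25 reads each and intervals that included 1.

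Over all 39 members, both KO libraries lay above both WT libraries in CPM for 20, below them for 4, and the genotypes overlapped for 15. Among the 36676 genes of the table with at least 10 reads, 36.3% were above and 24.1% below. These include genes with far more reads than the members. Tested genes with 28 to 1742 reads leaned to KO in their calls, with 12.6% higher and 5.83% lower. The 36.3% and 24.1% are therefore not shares at like read depth, which were not computed. The members above were 9 of 22 C/D box, 6 of 11 H/ACA box, 2 of 2 U3 and 3 of 4 Cajal body genes. The 4 below were Snord104, Snord66, Snora73b and Snora57.

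Summed by class, the C/D box RNAs had 32.5 and 28.0 CPM in KO against 26.6 and 21.3 CPM in WT, and 63.1% of their reads came from Snord17. Without Snord17 the sums were 10.8 and 12.4 CPM in KO against 8.73 and 8.15 CPM in WT. The H/ACA box RNAs summed to 9.71 and 7.96 CPM in KO against 6.77 and 5.64 CPM in WT. In both classes the KO libraries lay above the WT libraries, with log2 ratios of the group means of 0.34 for C/D box and 0.51 for H/ACA box.

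The counted U3 reads had the widest separation, with 4.50 and 2.82 CPM in KO against 0.643 and 0.791 CPM in WT. Their log2 ratio was 2.35, and 1.36 without Rnu3b2. Since these reads meet only the last annotated base, the level of U3 itself was not measured. The U3 values below are thus not of like kind with those of the other classes. Cajal body RNAs overlapped, with 13.3 and 19.1 CPM in KO against 14.6 and 19.96 CPM in WT, and Scarna2 gave 79.5% of their reads. Without Scarna2 the sums were 4.44 and 4.42 CPM in KO against 3.45 and 2.64 CPM in WT. The median log2 fold changes of the tested members were 0.29 for C/D box, 0.45 for H/ACA box, 1.96 for U3 and 0.48 for Cajal body genes. Leaving out 1 library gave medians of up to 0.67 for C/D box (without KO replicate 1) and down to 0.25 for H/ACA box genes (without WT replicate 2). With 2 to 7 tested genes a class, of which 1 or 2 in each class passed the filter through KO alone, differences between classes were not tested.

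**Figure D4:**
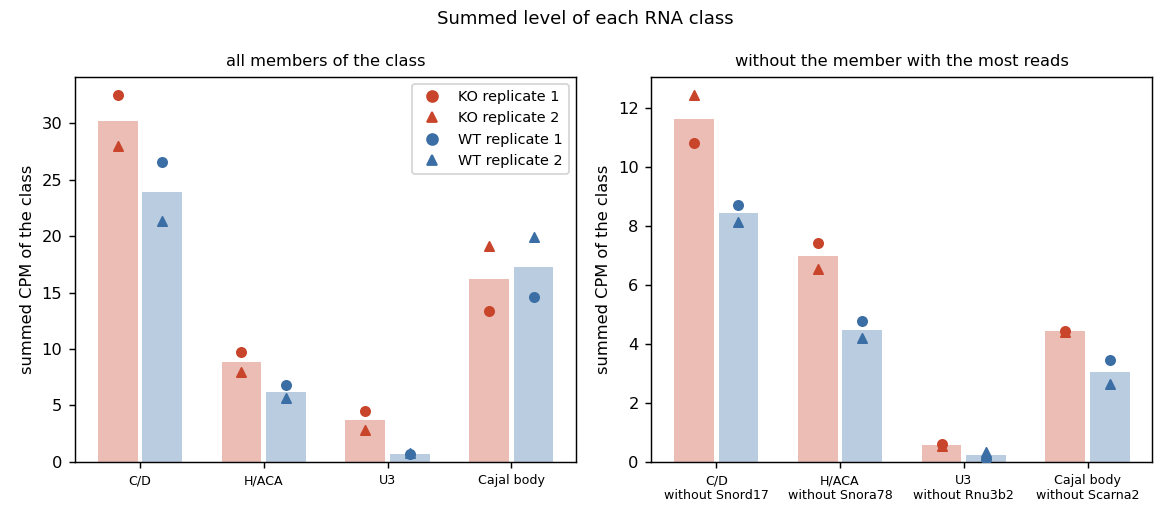
Summed CPM of the members of each class per library (points) and group mean (bars), KO in red left of WT in blue, with all members at left and without the member with the most reads at right. The KO points lie above the WT points in every class except Cajal body RNAs at left, where Scarna2 gives 79.5% of the reads. The U3 bars hold only reads that meet the last annotated base, not the level of U3.

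Most members lie inside another gene. Of the 39, 32 lie within a same-strand host, in 30 hosts of which 24 are protein coding, 6 noncoding and 8 ribosomal protein genes. Of the 30 hosts, 2 were called higher, 8 lower and 20 neither, with a median log2 fold change of -0.10. Among all genes tested 11.6% were higher and 20.3% lower. Most hosts had more than 1742 reads, while 5.83% were lower among the tested genes with 28 to 1742 reads. The shares over all genes are therefore no base at like read depth. With plain library totals 6 hosts were higher and 3 lower, with a median of 0.058. In the 12 pairs where the member was tested as well, the member had the higher log2 fold change in 9 and the host in 3, and the median difference was 0.57. Among the 9 are Snord49b, Rnu3b4 and Scarna6, which reached the filter through the KO libraries alone. The tested members have 28 to 1742 reads, where the median of all tested genes was 0.31, so member and host are not at like read depth. All 4 libraries are also shared between a member and its host, so these pairs are a description. Hosts were assigned by position alone, and whether a member is made from the RNA of its host was not tested. Both U3 members, which lie in Tex14, are among the 12 pairs.

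Snora21 lies in an intron of Rpl23, the gene of a protein of the large ribosomal subunit, 31 bases from the nearest exon. Rpl23 fell in KO, with 170.4 ± 4.12 CPM in KO and 220.4 ± 1.18 CPM in WT (SD, n = 2 each), a log2 fold change of -0.37 ± 0.0587 (edgeR adjusted p = 3.37e-05). Snora21 thus had 10.4 and 9.86 reads per 1000 reads of Rpl23 in KO, against 2.14 and 1.92 in WT.

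Rnu3b2 and Rnu3b4 lie in an intron of Tex14, the gene of a protein of the bridges between germ cells, 2821 and 11903 bases from its nearest exon. Tex14 fell in KO, with 102.0 ± 0.462 CPM in KO and 135.1 ± 7.24 CPM in WT, a log2 fold change of -0.41 ± 0.0632 (edgeR adjusted p = 2.82e-05). Rnu3b2 had 38.3 and 22.3 reads per 1000 reads of Tex14 in KO, against 4.17 and 3.20 in WT. Whether U3 is made from Tex14 RNA was not tested, so this ratio compares levels only.

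Other pairs ran from opposite to like directions. Rps3, the host of Snord15a, fell by 0.28 on the log2 scale (edgeR adjusted p = 0.000879), a call not made with plain library totals (0.0956). Nop58, the host of Snord11, was lower with a log2 fold change of -0.22 ± 0.0631 (edgeR adjusted p = 0.00903; 0.343 with plain library totals). The noncoding hosts Snhg9 of Snora78 and Snhg10 of Scarna13 had log2 fold changes of 0.49 ± 0.4 and 0.53 ± 0.249, neither of which passed. The 5 tested members with no host, Snord104, Snord118, Snord13, Snora17 and Scarna2, had a median log2 fold change of 0.20, against 0.49 for the 12 tested members inside hosts.

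**Figure D5:**
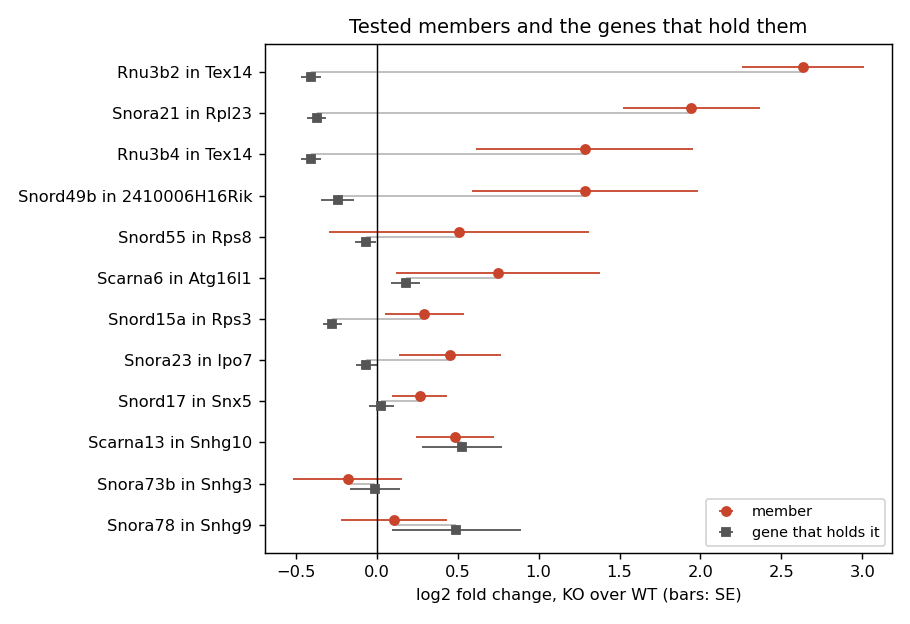
log2 fold change (KO over WT, bars of 1 SE) of the 12 tested members that lie in a host (red circles) and of that host (grey squares), ordered by the difference. Rnu3b2 and Snora21 lie at 2.63 and 1.94 while their hosts Tex14 and Rpl23 lie at -0.41 and -0.37, and in the lowest 3 pairs the host is to the right of the member.

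Many genes of proteins that bind, assemble or trim these RNAs fell in KO. Of the 68 tested genes on 5 such lists, 40 were lower and none was higher in KO, beside 20.3% lower among all genes tested. The 40 include Dis3, the gene knocked out. Most of the 68 had more than 1742 reads, while 5.83% were lower among the 15712 tested genes with 28 to 1742 reads. The 20.3% is therefore not a share at like read depth, which was not computed. At an unadjusted p under 0.05 and in DESeq2 none of the 68 was higher either. The median log2 fold change of the 68 was -0.26. With plain library totals 25 were lower and 3 higher, as this scaling moved the median of all genes by 0.15.

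Of the core proteins, Snu13 (-0.37 ± 0.0806) and Nop58 of C/D box RNAs and Nop10 (-0.41 ± 0.0765) and Nhp2 (-0.24 ± 0.0622) of H/ACA box RNAs fell, although Nop58 and Nhp2 were not called with plain library totals. The methyltransferase gene Fbl (0.01 ± 0.0822) and the pseudouridine synthase gene Dkc1 (0.11 ± 0.0746) did not pass. Of 19 assembly and Cajal body factors 13 fell, among them Coil, which encodes coilin of the Cajal body, with 52.8 ± 7.36 CPM in KO and 79.9 ± 3.22 CPM in WT, and the RNA-binding Larp7 (-0.59 ± 0.0592). Of 21 trimming and decay factors 10 fell, led by Dis3 itself (-0.96 ± 0.0729, edgeR adjusted p = 2.34e-09). Exosc10, the nuclear exosome nuclease known for snoRNA trimming, had 123.8 ± 7.18 CPM in KO and 163.3 ± 2.23 CPM in WT, and Exosc5 and Exosc3 fell as well (-0.66 and -0.46). Of 20 U3 and early processome proteins 13 fell, among them Bms1 (-0.41 ± 0.0585) and Mphosph10 (-0.38 ± 0.0646).

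Many cell type markers moved with the genotype too. Among all genes tested 11.6% were higher and 20.3% lower in KO, which are not shares at like read depth. All 12 meiotic germ cell markers were lower, with summed levels of 3185 and 3093 CPM in KO against 4439 and 4538 CPM in WT. Of 10 macrophage markers 9 were higher, with 299.7 and 292.8 CPM in KO against 182.8 and 180.1 CPM in WT. Of 10 Sertoli cell markers 3 were higher and 7 were not called, with 4012 and 3916 CPM in KO against 3751 and 3619 CPM in WT. Both KO libraries lay above both WT libraries for 5 Sertoli markers and below them for 2 (Ctsl and Rhox5). No marker of the 3 lists was at 0. In whole tissue, fewer cells of a type and less RNA per cell cannot be told apart, and the part of cell makeup in the values of the small RNAs was not tested.

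Of other stable small RNAs, Rnu11, which recognises the minor class of introns, had 272 and 310 reads in KO against 139 and 217 in WT, a log2 fold change of 1.51 ± 0.144 (edgeR adjusted p = 4.04e-08). Rn7sk (-0.05 ± 0.349), the telomerase RNA Terc (0.55 ± 0.462) and Vaultrc5 (0.19 ± 0.482) did not pass. Rny1, Rny3, Rnu12 and Rnu5g were too low to test, with 12 to 34 reads each.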

How the data were processed

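Raw read counts per gene were deposited by the authors, who per the file headers made them with featureCounts 1.6.4 on exons of GENCODE M18, on the strand of the gene. The recorded command sets no option to keep reads that map to several places or meet several genes, so these were left out. Trimming, alignment and build are named as cutadapt, HISAT2 and GRCm38.p5 in the submitters' processing notes. Per the labels, RNA was extracted with an RNeasy Micro Kit and copied from random and poly(T) primers, while the molecule is labelled polyA RNA. How far RNAs as short as these were kept by the kit or by fragment size is not given in the sources used here.

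Counts were tested with edgeR 4.0.16 (filterByExpr, TMM, robust quasi-likelihood fit, genotype alone, Benjamini-Hochberg over all genes tested, threshold 0.05). The SE is the log2 fold change divided by the square root of F. Ratios of untested members carry exact binomial intervals (95%, counting error only). Background was the mean of upstream regions after dropping 0.25 at each end. Class and host comparisons are descriptions.

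The members and lists were chosen with earlier results of these data known. Named were Dis3, all U3 and Cajal body members, the 6 C/D and 6 H/ACA members with the highest mean CPM, called members, those beside the threshold, their hosts, and up to 4 called genes a list. Other members were named after their values were seen, to account for all 39, and so were Fbl and Dkc1.

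Replicates differed beyond sampling noise (chi-square per degree of freedom 5.08 in KO and 4.54 in WT). On simulated counts, the fit was tested for recovery of known changes. Alternatives were DESeq2 1.42.0, median-of-ratios or library total scaling, other filters, a replicate block, each library left out and background subtraction.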

Additional observations from a re-analysis of the deposited data

How the results depend on the processing

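The calls of Rnu3b2 and Snora21 held with each library left out, and that of Snord13 did not. The 3 higher and 0 lower calls became 5 higher with no filter (Snord11 and Snora47 added, members through their KO reads alone), and 2 to 5 higher and 0 to 1 lower when a library was left out. Without WT replicate 1 there were 5 higher (Snord11 and Snord17 added) and Scarna2 lower, and without KO replicate 2 Scarna2 was lower as well. Leaving out members whose bases are mostly shared, an alternative chosen after seeing the data, removed Rnu3b2. The 2 calls left were Snora21 and Snord13. The median of members was 0.72 with no filter, 0.27 at 50 reads or more and 0.20 without a host. Class medians were 0.94 for C/D with no filter, 2.70 for U3 with a filter of 1 CPM, and 0.63, 0.17 and 0.094 for Cajal body genes with library totals, that filter and background over the length plus 200 bases. Leaving out libraries gave 0.44 to 0.67 for C/D, 0.25 to 0.66 for H/ACA, 1.69 to 2.44 for U3 and 0.22 to 0.46 for Cajal body genes. The log2 ratio of summed reads was 1.36 for U3 without Rnu3b2 and 0.54 for Cajal body genes without Scarna2, and for all members 0.44, 0.36 and 0.22 with library totals, the 1 CPM filter and no filter.

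Of all genes tested, 2906 were higher and 5092 lower. Library totals gave 5448 and 2949, moving the share of calls that were higher to 64.9%, against 36.3%. Higher calls numbered 1937 with no filter, 1179 and 1148 after background subtraction over the length and the length plus 200 bases, 1008 in DESeq2 and 1324 to 2429 without a library (1521 without KO replicate 1, 1324 without KO replicate 2, 1537 without WT replicate 2).

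The median of the protein genes (-0.26) was -0.28 with median-of-ratios scaling and in DESeq2, -0.10 with library totals, -0.33 with no filter, -0.19 with the 1 CPM filter, -0.27 with either background subtraction and -0.32 to -0.29 without a library. Library totals gave 25 lower and 3 higher. Of the hosts, library totals gave 6 higher and 3 lower with a median of 0.058, no filter a median of -0.17, the 1 CPM filter 5 lower and -0.055, background subtraction 1 higher and -0.13, DESeq2 1 higher, and leaving out a library 1 higher, 5 to 10 lower and -0.17 to -0.081.

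Of named members, signs turned only when a library was left out, with ranges of -0.011 to 0.45 for Snord17 (lowest without KO replicate 1), -0.28 to 0.63 for Snord15a (lowest without KO replicate 2), -0.75 to 0.074 for Scarna2 (highest without WT replicate 2, and 0.011 without KO replicate 1), -0.12 to 0.45 for Snord118 and -0.30 to 0.38 for Snora78 (both lowest without KO replicate 1, and -0.078 and -0.13 without WT replicate 2). The cause was not tested. With the replicate number as a block, 3 members were higher and 0 lower. The labels do not say whether same-numbered libraries are paired. Over 25076 genes, the deviations of KO replicate 1 and WT replicate 1 from their genotype means correlated at -0.00826. A correlation across genes in so few libraries cannot decide it. Counting error limits every member under 50 reads.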

Other observations

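Predicted and other annotated snoRNA and scaRNA genes without the names used above numbered 1399 rows, of which 64 had at least 10 reads and 18 could be tested. In the edgeR test 3 were higher in KO (Gm24494, Gm26387 and AF357399) and 2 lower (Gm23547 and Gm24339), with a median log2 fold change of 0.13. Their summed levels were 169.1 and 158.8 CPM in KO against 160.6 and 144.3 CPM in WT, which overlapped.

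The tables of reads in the 3000 bases upstream of genes held a region for 1 member, Snord104. On its own strand the region had 75 and 97 reads in KO against 120 and 144 in WT, a log2 fold change of 0.17 ± 0.219 (edgeR adjusted p = 0.584). On the opposite strand it had 10 and 19 reads in KO against 13 and 26 in WT, a log2 fold change of 0.38 ± 0.527 (edgeR adjusted p = 0.581). Neither strand passed the test.

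Snord53 lies in Wdr43 beside Snord92, and a predicted gene on the same chromosome, Gm22858, whose sequence is 73.1% identical to Snord53, had 14 and 4 reads in KO against 0 and 1 in WT. Gm22858 carries none of the names used here and was not tested. The predicted gene Gm23734, 88.2% identical to Snord8, showed no such lean, with 3 and 1 reads in KO against 2 and 8 in WT.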
